A study of Mus musculus with 6 samples.

Results

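Interferons act on cells through a short relay. Type I interferons bind a receptor built from the chains IFNAR1 and IFNAR2, which carry the kinases TYK2 and JAK1, and interferon gamma binds a receptor built from IFNGR1 and IFNGR2, which carry JAK1 and JAK2. The kinases phosphorylate STAT proteins, and STAT2 with IRF9 forms part of ISGF3, the complex that enters the nucleus and switches on antiviral genes. In tubular epithelium, as in most epithelia, the receptors and kinases are made constitutively, whereas the ISGF3 subunits are themselves products of interferon-induced genes.

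The 9 genes described here encode 4 receptor chains (Ifnar1, Ifnar2, Ifngr1 and Ifngr2), 3 kinases (Jak1, Jak2 and Tyk2) and 2 transcription factors (Stat2 and Irf9). They were found by symbol, through the GENCODE M21 annotation of GRCm38, among the 22442 genes of the deposited expression table, and every one of the 9 was present. They do not include every subunit of ISGF3. The libraries came from mTECs, a murine renal tubular epithelial line that the paper describes as immortalised and the labels as magnetically sorted. The group LPS (3 libraries) had been transfected with a negative control, and the group LPSKD (3 libraries) with an RNA against Stat3, given as an siRNA in the labels and as an shRNA in the study's list of reagents. Cells of both groups then received lipopolysaccharide, a component of the bacterial outer membrane, at 20 μg/ml for 24 h, so that every library analysed here was a stimulated one. The labels name no altered allele, and no library of unstimulated cells was analysed here.

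Sequencing was of polyadenylated RNA with paired ends, and values are FPKM, a fragment number divided by gene length and library total. The totals behind them lay between 24084827 and 25422171 fragments. Stat3, the targeted gene, was at 34.6, 31.4 and 35.2 FPKM in LPS and at 30.8, 35.2 and 34.3 FPKM in LPSKD, with groups that overlapped (exact permutation test, p = 0.7). Since that level does not separate the groups, LPS and LPSKD here always mean libraries that bear that label. Every direction below rests on those labels. The paper reports Stat3 knockdown in mTECs by real-time PCR and Western blot. Whether the cells of these libraries were among those measured is not given in the sources used here. Epithelial genes were abundant, with the adhesion molecule Epcam between 291 and 331 FPKM, but Slc34a1, Umod and Aqp2, which define the proximal tubule, the thick ascending limb and the collecting duct, were listed at 0 in every library. Of 11 tubular genes tested 5 passed the limma test described below, against 3.23% of all genes tested. Among these, Pax2, Pax8, Cdh16 and Aqp1 rose in LPSKD by 0.60, 0.39, 0.27 and 0.93 on the log2 scale and Krt18 fell by 0.15. Of 9 immune markers 6 were tested and 1 passed, Csf1r (log2 fold change 0.45). The summed immune level was 58.5 to 64.9 FPKM in LPS and 62.3 to 76.1 FPKM in LPSKD, carried by Csf1r, Lyz2 and Cd68, while Itgam was at or near 0. The endothelial markers (4 genes) summed to 2.31 to 4.29 FPKM and 2.71 to 4.46 FPKM, and the fibroblast markers (6 genes) to 25.0 to 32.3 FPKM and 17.7 to 31.4 FPKM. The part of these genes in the differences described below was not tested. In such bulk libraries, fewer cells of a type and less RNA per cell cannot be told apart.

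The question put to the 9 genes was which layer of the relay, receptor, kinase or transcription factor, differed between the groups. The 2 transcription factors were lower in LPSKD, with Irf9 3.87-fold below its level in LPS. The 2 chains of the interferon gamma receptor were higher by modest amounts. None of the 3 kinases and neither chain of the type I receptor passed the test. Differences were tested with limma on log2(FPKM + 0.1) over the 11723 genes with a mean of at least 0.5 FPKM, with Benjamini-Hochberg adjustment and a threshold of 0.05, and every log2 fold change below is on that scale, while a plain fold is the ratio of the mean FPKM. All 9 genes passed the filter on low values. Over all genes tested, 3.23% passed the threshold, 1.57% as higher and 1.66% as lower in LPSKD, and the median log2 fold change was −0.01. In 23.8% of all genes tested the values of the groups did not overlap, and this was so for 5 of the 9 genes. An unadjusted p under 0.05 was reached by 17.6% of all genes tested.

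By layer, 2 of the 4 receptor chains were called, both higher, with a median log2 fold change of 0.27 over the 4 and groups that did not overlap in 3. Of the 3 kinases 0 were called, at an unadjusted p under 0.05 also 0 and by limma-voom on the fragments 0, with a median of −0.01 and overlapping groups in each. Both transcription factors were called, both lower, with a median of −1.23. Summed FPKM of the 4 receptor chains was 156.7 ± 4.81 in LPS and 191.7 ± 4.03 in LPSKD (SD, n = 3). For the kinases it was 77.2 ± 1.84 and 77.8 ± 1.09 (SD, n = 3), and for the factors 36.0 ± 0.877 and 15.7 ± 1.29 (SD, n = 3). Single genes carried most of the 2 sums that differed. Ifngr1, with means of 84.2 and 110.2 FPKM, gave most of the receptor sum and of its rise. Irf9, with means of 21.2 and 5.48 FPKM, gave most of the fall of the factors. Whether the labelled replicates came from separate cultures is not given in the sources used here, so the p-values measure the spread between these libraries, which may be technical. With 3 libraries in each group, the smallest two-sided p that exact permutation can reach is 0.1.

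**Figure D1:**
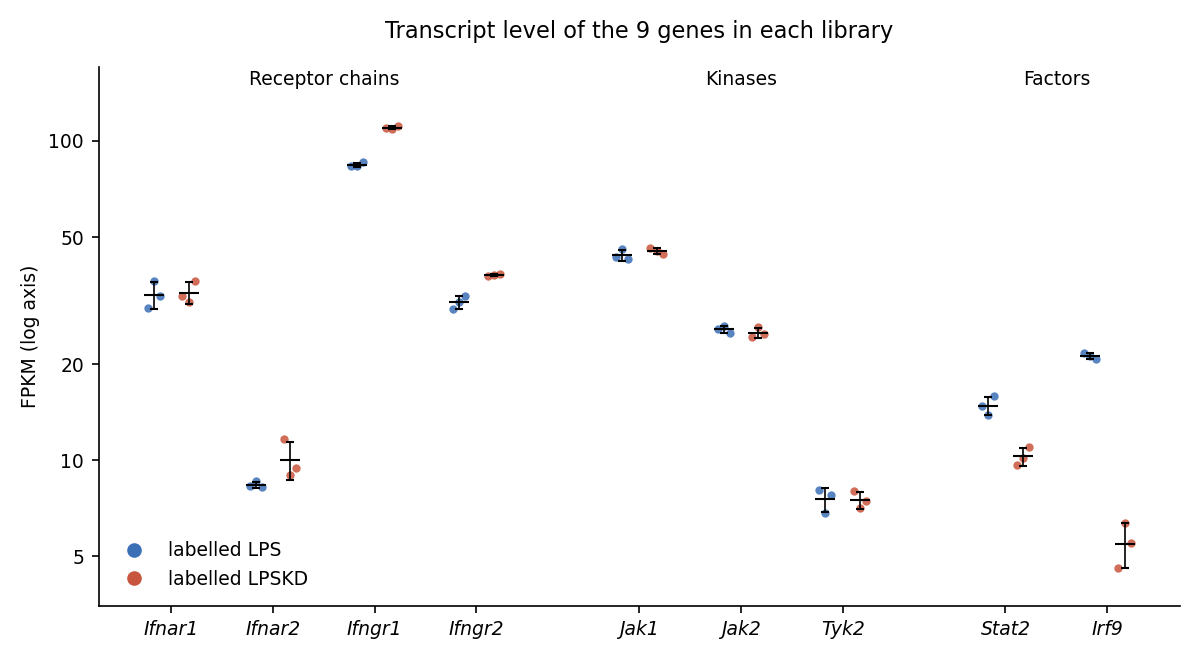
Transcript level in FPKM, on a log axis, of the 4 receptor chains, the 3 kinases and the 2 transcription factors in each library labelled LPS (blue) and LPSKD (red), with horizontal lines for the means and bars for the SD (n = 3). The points of Irf9 lie between 20.8 and 21.6 in LPS and between 4.59 and 6.36 in LPSKD, while those of the 3 kinases overlap between the groups.

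Few fragments were listed on the interferon ligands themselves. The table held 21 ligand genes (the interferon alpha family, Ifnb1, Ifng, the lambda interferons and others), of which 12 were listed at 0 in all 6 libraries. As far as counting error goes, a 0 allows up to 3 fragments in a library, but the interferon alpha genes are near-identical copies, and how fragments shared between copies were assigned is not given in the sources used here. The ligand genes summed to 7, 16 and 28 fragments in the LPS libraries and to 4, 0 and 2 fragments in the LPSKD libraries. Ifnb1, the interferon beta gene, held 2, 2 and 16 fragments in LPS and 0, 0 and 1 in LPSKD, so that 1 library supplied most of them. Ifng, the only ligand of the gamma receptor, held 1 fragment in all. No ligand gene reached the mean of 0.5 FPKM needed for the test, and in a fit of every gene above 0 the lowest adjusted p among them was 0.0620, for Ifnab.

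Ifngr1 (ENSMUSG00000020009), the ligand-binding chain of the interferon gamma receptor, lies on chromosome 10 (GRCm38, as for all positions here) from 19591949 to 19610229 on the plus strand. It had the highest level of the 9 genes in both groups and stood above 87.4% of the genes tested. Its level was 83.3, 83.5 and 85.8 FPKM in LPS and 109.5, 109.3 and 111.7 FPKM in LPSKD. Every LPSKD library lay above every LPS library, and the replicates of each group lay close together. The means were 84.2 ± 1.37 and 110.2 ± 1.299 (SD, n = 3), a 1.31-fold rise (log2 fold change 0.39, standard error (SE) 0.03, adjusted p = 8.92e-04). The 95% interval of the change ran from 23.8% to 38.3%. The gene was supported by 2968 to 4065 fragments in a library. Of the 184 genes called higher, 115 rose by less than Ifngr1.

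Ifngr2 (ENSMUSG00000022965), the signalling chain that brings JAK2 to the same receptor, lies on chromosome 16 from 91547072 to 91565623 on the plus strand. Its level was 29.7, 31.3 and 32.6 FPKM in LPS and 37.8, 38.1 and 38.2 FPKM in LPSKD. Again the groups did not overlap, and the LPSKD libraries were nearly equal. The means were 31.2 ± 1.45 and 38.0 ± 0.225 (SD, n = 3), a 1.22-fold rise (log2 fold change 0.29, SE 0.05, adjusted p = 0.0218), with a 95% interval from 12.6% to 32.2%. The SD of the LPSKD libraries was smaller than counting error alone gives, with a coefficient of variation of 0.591% against 3.42% from 737 to 969 fragments. This call was lost without the trend in limma's eBayes step (adjusted p = 0.0691) and without LPS library 2 or LPSKD library 1, 2 or 3. The adjusted p ranged from 0.0431 to 0.0963 over the 6 omissions and from 0.0207 to 0.0691 over the other alternatives.

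Ifnar1 (ENSMUSG00000022967), the chain of the type I receptor that carries TYK2, lies on chromosome 16 from 91485238 to 91507441 on the plus strand. Its level was 29.9, 36.3 and 32.7 FPKM in LPS and 32.6, 31.4 and 36.5 FPKM in LPSKD. The groups overlapped throughout, and the means were 33.0 ± 3.21 and 33.5 ± 2.67 (SD, n = 3). The log2 estimate was 0.02 (SE 0.08, adjusted p = 0.92), and its 95% interval ran from −11.0% to 16.1%, so that the estimate of Ifngr1 lay outside it. In the coding sequence of Ifnar1, 3.29% of the 31-base stretches are shared with Gm49626, which is not in the table.

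Ifnar2 (ENSMUSG00000022971), the chain that binds type I interferon most tightly and carries JAK1, lies on chromosome 16 from 91372783 to 91405589 on the plus strand. Its level was 8.29, 8.59 and 8.23 FPKM in LPS and 11.6, 9.01 and 9.46 FPKM in LPSKD. The groups did not overlap, but LPSKD library 1 stood well above its replicates, and the means were 8.37 ± 0.194 and 10.0 ± 1.39 (SD, n = 3). The log2 estimate was 0.25 (SE 0.11, adjusted p = 0.275), with a 95% interval from 0.352% to 40.8% higher. Ifnar2 thus missed the threshold with an interval that held the changes of both interferon gamma receptor chains. With 1 library left out, its log2 fold change lay between 0.14 and 0.32. In the coding sequence of Ifnar2, 18.1% of the 31-base stretches also occur in Gm21970, a gene model that overlaps it on the same strand and is listed at 0 in the table, so that how its fragments were assigned affects its level.

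The ratios within a library asked whether the chains of a receptor changed unequally. Ifngr1 exceeded Ifngr2 by 2.80, 2.67 and 2.63 times in LPS and by 2.90, 2.87 and 2.92 times in LPSKD, a difference of 0.10 on the log2 scale (exact permutation test, p = 0.1, adjusted p = 0.25 over 5 ratios). Ifnar1 exceeded Ifnar2 by 3.61, 4.23 and 3.97 times in LPS and by 2.81, 3.48 and 3.86 times in LPSKD (difference −0.23, exact permutation test, p = 0.2, adjusted p = 0.25). Whether the change of the gamma receptor chains differed from that of the type I chains was not tested.

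Of the kinases, Jak1 (ENSMUSG00000028530), which serves both receptors, lies on chromosome 4 from 101152367 to 101265282 on the minus strand and was the most abundant. Its level was 43.4, 45.9 and 42.6 FPKM in LPS and 46.1, 45.3 and 44.2 FPKM in LPSKD. The means were 44.0 ± 1.74 and 45.2 ± 0.951 (SD, n = 3), with an estimate of 0.04 on the log2 scale (SE 0.05, adjusted p = 0.716). With 3598 to 3983 fragments in a library, the 95% interval was narrow, from −4.52% to 10.9%.

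Jak2 (ENSMUSG00000024789), the partner of IFNGR2, lies on chromosome 19 from 29251828 to 29313080 on the plus strand. Its level was 25.7, 26.4 and 25.1 FPKM in LPS and 24.3, 26.1 and 24.9 FPKM in LPSKD, with log2 fold change −0.03 (SE 0.05, adjusted p = 0.802) and a 95% interval from −10.3% to 6.34%. Tyk2 (ENSMUSG00000032175), the partner of IFNAR1, lies on chromosome 9 from 21104068 to 21131243 on the minus strand. Its level was 8.04, 6.81 and 7.80 FPKM in LPS and 7.98, 7.07 and 7.45 FPKM in LPSKD, with log2 fold change −0.01 (SE 0.10, adjusted p = 0.979) and a 95% interval from −15.2% to 16.7%. For each kinase the groups overlapped. The 1.31-fold rise of Ifngr1 and the 1.22-fold rise of Ifngr2 lay outside the interval of each kinase. Changes small enough to lie inside an interval were not excluded. Tyk2 and its antisense neighbour 1700084C06Rik overlap on the chromosome, and the latter is not in the table. The ratios of Tyk2 and of Jak2 to Jak1 differed by −0.05 and −0.08 on the log2 scale (exact permutation test, adjusted p = 0.6 and 0.25 over 5 ratios).

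Irf9 (ENSMUSG00000002325), the DNA-binding subunit of ISGF3, lies on chromosome 14 from 55603571 to 55610030 on the plus strand. Its level was 21.6, 21.1 and 20.8 FPKM in LPS and 4.59, 6.36 and 5.49 FPKM in LPSKD, from 798, 780 and 753 fragments against 170, 227 and 207. The groups lay far apart, and the highest LPSKD library stayed far under the lowest LPS library. The means were 21.2 ± 0.422 and 5.48 ± 0.883 (SD, n = 3), a level 3.87-fold lower in LPSKD (log2 fold change −1.94, SE 0.11, adjusted p = 6.5e-05), and the 95% interval of the fall ran from −78.3% to −68.8%. The LPSKD libraries varied more among themselves (coefficient of variation 16.1%) than the LPS libraries (1.99%), against 4.52% from counting error. That last value was taken at the mean fragments of all 6 libraries, so it is too low for LPSKD and too high for LPS. Among the genes tested, 20 fell at least as far as Irf9, itself included, and 17 of these were called. With 1 library left out, the log2 fold change lay between −2.05 and −1.82. A part of the Irf9 coding sequence, 2.90% of its 31-base stretches, is shared with Gm38002, which is not in the table, and the start of Irf9 overlaps the end of Rnf31 on the same strand (10.1 FPKM over the 6 libraries).

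Stat2 (ENSMUSG00000040033), the subunit of ISGF3 that carries its transactivation domain and docks on the type I receptor, lies on chromosome 10 from 128270559 to 128292849 on the plus strand. Its level was 14.7, 13.9 and 15.9 FPKM in LPS and 9.67, 10.2 and 11.0 FPKM in LPSKD. The groups did not overlap, and the means were 14.8 ± 0.996 and 10.3 ± 0.651 (SD, n = 3). Stat2 was 1.44-fold lower in LPSKD (log2 fold change −0.52, SE 0.08, adjusted p = 0.0131), with a 95% interval from −39.0% to −20.7%. The call was lost without LPS library 3 and without LPSKD library 1 or 2 (adjusted p between 0.0221 and 0.0681 over the 6 omissions), and the adjusted p lay between 7.94e-04 and 0.0459 over the alternatives that kept every library.

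The ratio of Irf9 to Stat2 asked whether the 2 factors changed unequally. Irf9 was 1.47, 1.52 and 1.31 times the level of Stat2 in LPS and 0.475, 0.624 and 0.501 times in LPSKD. The ratio differed by −1.43 on the log2 scale with no overlap, which gave the smallest p that 3 against 3 allows (exact permutation test, p = 0.1, adjusted p = 0.25 over 5 ratios). By level per length, Irf9 was 6th of the 9 genes in LPS, below Jak2 and above Stat2, and 9th in LPSKD, below Tyk2. In LPS the order was Ifngr1, Jak1, Ifnar1, Ifngr2, Jak2, Irf9, Stat2, Ifnar2 and Tyk2, and of the neighbours in it only Ifnar1 and Ifngr2 had overlapping libraries. In LPSKD the order was Ifngr1, Jak1, Ifngr2, Ifnar1, Jak2, Stat2, Ifnar2, Tyk2 and Irf9, with overlap only between Stat2 and Ifnar2.

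**Figure D2:**
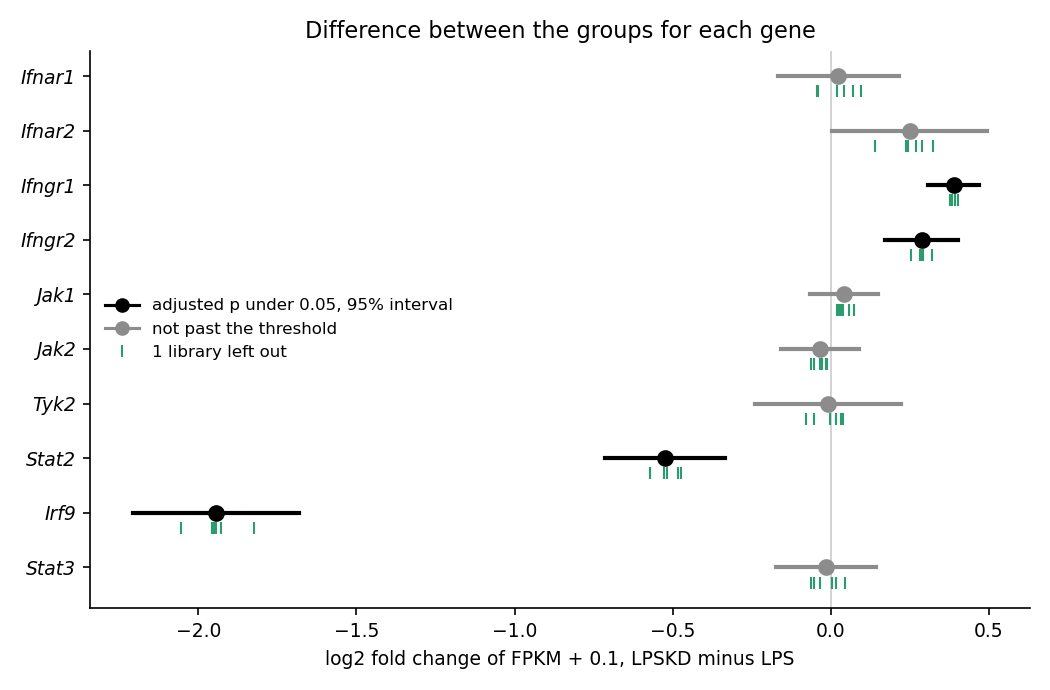
Log2 fold change of FPKM + 0.1 (LPSKD minus LPS) for the 9 genes and for Stat3, with the limma estimate as a point, its 95% confidence interval as a line and the estimates with 1 library left out as green ticks. Black marks the genes past the adjusted threshold: Ifngr1 (0.39) and Ifngr2 (0.29) to the right of 0, and Stat2 (−0.52) and Irf9 (−1.94) to the left.

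Because ISGF3 binds DNA at the interferon-stimulated response element, the letters of that element were searched in the 250 bases before the RefSeq start of each gene (RefSeq, GRCm38.p6). The search took TTTC, any 2 bases and TTTC again, or on the other strand GAAA, any 2 bases and GAAA. It matched 1 of the 10 windows of the 9 genes, that of Stat2, 222 bases before the start, and 2.98% of 32851 windows of all genes. The window of Stat2, chr10:128270248-128270497 on the plus strand, is shown because Stat2 is the called gene whose window holds the letters, given in capitals.

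Stat2: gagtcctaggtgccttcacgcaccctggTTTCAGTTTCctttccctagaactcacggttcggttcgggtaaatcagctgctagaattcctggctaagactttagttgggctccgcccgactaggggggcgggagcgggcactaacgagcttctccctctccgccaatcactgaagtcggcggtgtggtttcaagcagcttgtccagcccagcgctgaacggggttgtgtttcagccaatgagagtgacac

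The 2 windows of Irf9 held no match, which says only that these letters are not in those windows, and both lie within the Irf9 span of the GENCODE annotation. The letters of the gamma-activated site, TTC, any 3 bases and GAA, which reads the same on either strand, matched 1 of the 10 windows, that of Ifnar2 at 214 bases before the start, and 7.02% of all windows. The windows of Ifngr1 and Ifngr2 held neither motif. The same search in the called target genes described next found the response element letters before 6 of them. These were Isg15, Ifit1, Oas1a and Bst2, of 11 called ISGF3 targets with a window, and Cxcl10 and Gbp3, both called interferon gamma targets. Over all genes with a window 3.46% held the letters, and targets that were not called held them too. For Isg15, Ifit1, Cxcl10 and Gbp3, whose changes, among the largest of their lists, are given below, 1 site each is shown in 30 bases of the gene's own strand, with the match in capitals, for comparison with Stat2. The sites lie at chr4:156200871-156200900, chr19:34640794-34640823, chr5:92349083-92349112 and chr3:142559989-142560018, on the minus strand for Isg15 and Cxcl10 and on the plus strand for Ifit1, Gbp3 and Stat2 (chr10:128270266-128270295).
Stat2 site: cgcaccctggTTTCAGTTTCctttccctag
Isg15 site: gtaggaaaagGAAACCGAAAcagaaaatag
Ifit1 site: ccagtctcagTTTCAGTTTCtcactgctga
Cxcl10 site: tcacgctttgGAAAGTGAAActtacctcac
Gbp3 site: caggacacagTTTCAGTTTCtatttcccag

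The match of Isg15 overlaps further matches on each side, and that of Gbp3 overlaps another. A match is a stretch of letters and not a measured binding site.

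The rest of the pathway was described through gene lists. The first held receptors that signal through the same kinases. Of its 32 genes 16 were tested and 0 were called, against 3.23% of all genes tested. At an unadjusted p under 0.05 there were 5 of the 16, against 17.6% of all genes tested, and by limma-voom 0. The groups did not overlap in 5, against 23.8% of all genes tested, and the median log2 fold change was −0.08. Ifnlr1 and Il10rb, the chains of the type III interferon receptor, had log2 estimates of 0.01 and 0.04 (adjusted p = 0.985 and 0.887). The most abundant were Il6st, the shared chain of the interleukin 6 family (29.6 ± 0.818 and 32.2 ± 0.586 FPKM, log2 fold change 0.12, adjusted p = 0.247), Il13ra1 (0.09, adjusted p = 0.616) and Il4ra (−0.02, adjusted p = 0.95). The largest estimate was that of Lepr, the leptin receptor, at 1.00 with a 95% interval from 0.08 to 1.92 (adjusted p = 0.247). Its level was 5.58, 1.89 and 1.57 FPKM in LPS and 4.70, 5.80 and 5.24 FPKM in LPSKD, so that LPS library 1 stood apart from its replicates and within the range of LPSKD. Without that library Lepr was called (log2 fold change 1.55, adjusted p = 0.00379).

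Of 6 other JAK and STAT genes 5 were tested and 0 were called, against 3.23% of all genes tested. At an unadjusted p under 0.05 there were also 0, against 17.6% of all genes tested, and by limma-voom 0. The log2 fold changes of Stat6, Stat3 and Stat5b, transcription factors that answer to other cytokines, were −0.01, −0.01 and 0.03 (adjusted p = 0.963, 0.944 and 0.894), and the median of the 5 was −0.01. Of 16 genes for nuclear import and coactivation, 16 were tested and 0 were called, against 3.23% of all genes tested. At an unadjusted p under 0.05 there was 1, against 17.6% of all genes tested, and by limma-voom 0. Among them Kpnb1 and Kpna2, importins that carry proteins into the nucleus, had log2 estimates of −0.07 and −0.11 (adjusted p = 0.307 and 0.182), and Ruvbl2 had 0.06 (adjusted p = 0.44). Their median was −0.03.

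Among 20 brakes on the pathway, the suppressors of cytokine signalling, phosphatases and PIAS proteins, 20 were tested. Of these 1 was called, against 3.23% of all genes tested. The gene called was Usp18, the protease that removes ISG15 from proteins and also binds IFNAR2 to damp the type I receptor. Its mean was 19.5 ± 1.66 FPKM in LPS and 1.29 ± 0.233 FPKM in LPSKD (SD, n = 3), a log2 difference of −3.83 (SE 0.14, adjusted p = 1.1e-05). The groups of Usp18 did not overlap. The log2 fold changes of the other 19 lay between −0.18 and 0.31. These included the phosphatases Ptpn11 (0.09, adjusted p = 0.358) and Ptpn1 (0.04, adjusted p = 0.763) and the suppressor Socs2 (−0.05, adjusted p = 0.57).

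Of 24 target genes of ISGF3 22 were tested and 14 were called, against 3.23% of all genes tested. Every one called was lower in LPSKD, while 8 did not pass the test. The groups did not overlap in 21 of the 22, against 23.8% of all genes tested. The median log2 fold change was −1.67, against −0.01 over all genes tested, and the summed level was 341 to 359 FPKM in LPS and 171 to 187 FPKM in LPSKD. The list was drawn up with earlier results of these libraries known, so its direction is not independent evidence. After Usp18, which stands in both lists, the largest falls were those of Xaf1, a promoter of apoptosis (−3.66, adjusted p = 0.00157), Ifit1, which binds viral RNA (−3.54, adjusted p = 1.1e-05), and Isg15, a ubiquitin-like modifier (−2.56, adjusted p = 0.00138). The family of Ifit genes was split. Ifit3 was at 60.1 ± 0.840 and 56.9 ± 1.60 FPKM (SD, n = 3), a log2 fold change of −0.08 (adjusted p = 0.365), and Ifit2 at 41.9 ± 2.13 and 49.8 ± 3.02 FPKM, a log2 fold change of 0.25 (adjusted p = 0.0709). Ifit3 has a near-identical copy in the mouse, Ifit3b, so that its level is uncertain. Neither Ifit2 nor Ifit3 passed the test, and Herc6 (−0.58, adjusted p = 0.0649) did not either. Of the 8 targets not called, 7 had log2 estimates below 0, down to −1.80, and 1 above 0. By limma-voom 17 of the 22 were called, in a fit that called 582 genes in all.

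Of 22 target genes of interferon gamma 19 were tested and 2 were called, both lower, against 3.23% of all genes tested. The median of the 19 was −0.28. The groups did not overlap in 5 of the 19, against 23.8% of all genes tested. The 2 called were Cxcl10 and Gbp3. Cxcl10, a chemokine that type I interferon also induces, was at 35.9 ± 2.04 and 5.36 ± 1.96 FPKM (log2 fold change −2.78, adjusted p = 2.88e-04). Gbp3, a guanylate-binding protein of cell-autonomous defence, was at 3.78 ± 0.577 and 1.69 ± 0.384 FPKM (log2 fold change −1.12, adjusted p = 0.0259). The call of Gbp3 was lost in the fit with no filter on low values (adjusted p = 0.0690). The genes of antigen presentation Cd74, H2-Aa and H2-Eb1, which were the most abundant of those not called, had log2 estimates of 0.16, 0.10 and 0.04 (adjusted p = 0.355, 0.814 and 0.922). Set beside the receptors, Ifngr1 and Ifngr2 were higher in LPSKD while no interferon gamma target was called higher. The difference between the lists was not tested.

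**Figure D3:**
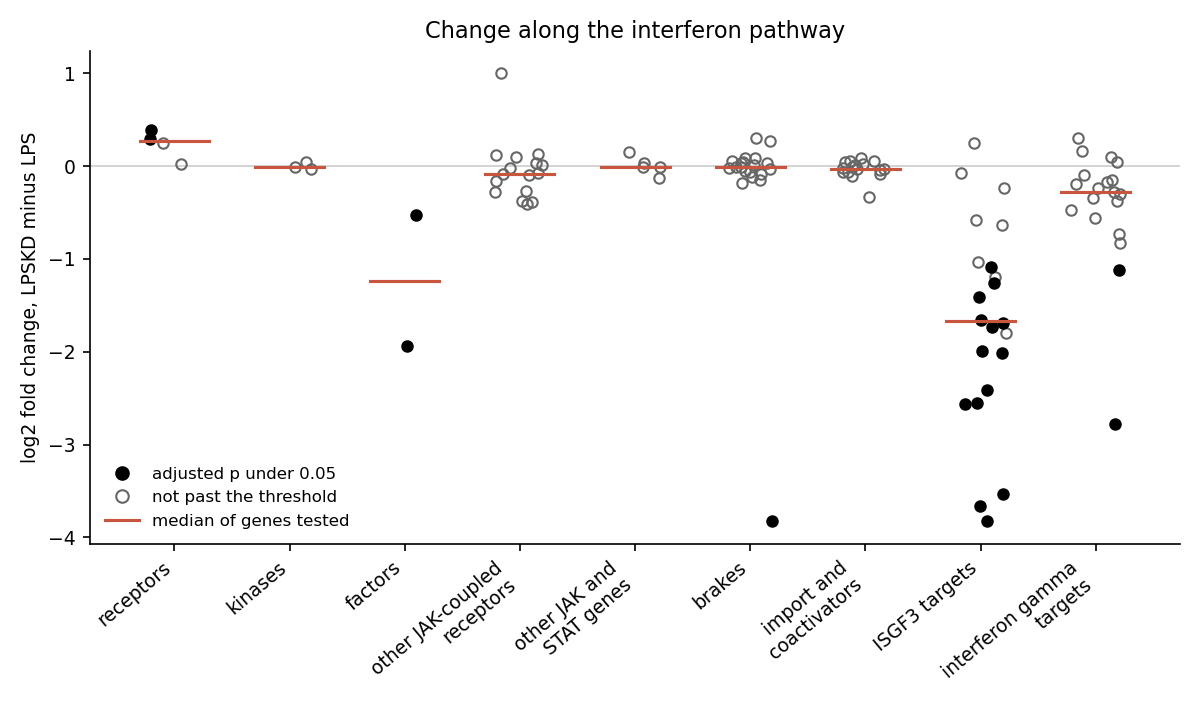
Log2 fold change (LPSKD minus LPS) of each tested gene along the pathway, grouped as receptors, kinases, factors and the other gene lists, with filled points for genes past the adjusted threshold and red lines for the median of the genes tested. The median is 0.27 for the receptor chains, −0.01 for the kinases, −1.23 for the factors, −1.67 for the ISGF3 targets and −0.28 for the interferon gamma targets.

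In 27025 genes with a RefSeq window, 3.46% held the response element letters in the 250 bases before a start. Of the ISGF3 targets 17 had a window and 6 of these held the letters (35.3%), among them Ifit3, which was not called. Of the 11 called ISGF3 targets with a window, 4 held them (36.4%), a share close to that of the whole list. Of the interferon gamma targets 17 had a window and 6 held the response element letters (35.3%), Cxcl10 and Gbp3 included. The letters of the gamma-activated site were held by 8.13% of all genes with a window. They were held by 7 of the 17 interferon gamma targets (41.2%), 0 of the 2 called ones, and by 3 of the 17 ISGF3 targets (17.6%).

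The chromosomal surroundings of the 9 genes were compared as well. Ifnar2, Il10rb, Ifnar1 and Ifngr2 lie in that order within 193 kb of chromosome 16, all on the plus strand, and Il10rb starts 575 bases after Ifnar2 ends. Among the genes tested in and beside this cluster, only Ifngr2 was called. Il10rb, the gene between the type I receptor chains, had a log2 fold change of 0.04, and Tmem50b, 8880 bases beyond Ifngr2, one of 0.17 (adjusted p = 0.69). Near the factors, Rnf31, whose end overlaps the start of Irf9, had a log2 estimate of −0.41 (SE 0.11, adjusted p = 0.105). Apof and Il23a, 406 and 3290 bases from Stat2, had log2 estimates of −0.04 and 0.17 (adjusted p = 0.968 and 0.426), and Psme2, 12458 bases from Irf9, had −0.16 (adjusted p = 0.178). Cachd1 beside Jak1, Rcl1 beside Jak2 and Cdc37 beside Tyk2 had log2 estimates of 0.11, −0.10 and 0.03 (adjusted p = 0.501, 0.42 and 0.746). Over the 8 tested nearest neighbours that do not overlap the 9 genes and are not among them, the lowest adjusted p was that of Psme2.

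**Figure D4:**
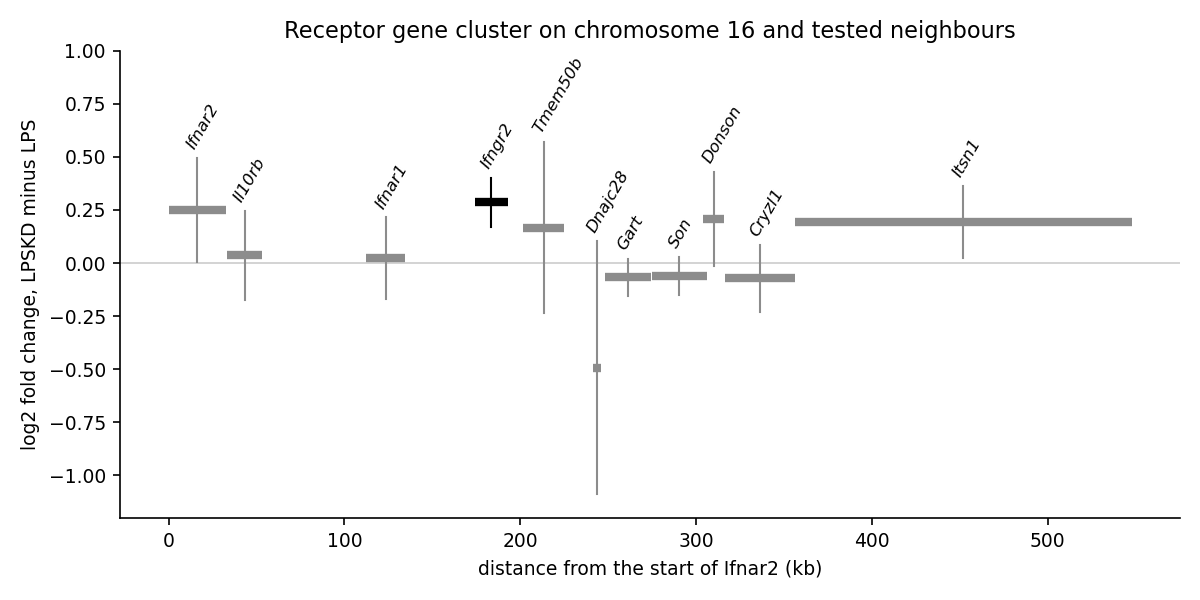
Log2 fold change (LPSKD minus LPS) of the tested genes in and beside the receptor cluster of chromosome 16, drawn over their extent as distance in kb from the start of Ifnar2, with thin vertical lines for the 95% confidence interval. Ifngr2 (0.29) is black because it passed the adjusted threshold, and the other genes, in grey, did not.

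As a description over the 6 libraries, the genes whose log2 level followed Irf9 most closely were Myo7b, an unconventional myosin of the microvillus (Pearson r 0.998, log2 fold change −0.76, adjusted p = 0.00386), Bst2, the membrane protein tetherin (0.998, log2 fold change −1.26), and Ifit1 (0.998). Those closest to Stat2 were Cltc, the clathrin heavy chain (Pearson r 0.995, log2 fold change −0.11, adjusted p = 0.121), Sema3c (0.993, log2 fold change −0.17) and Galnt10 (0.993, log2 fold change −0.18). These correlations share the 2 groups as their main source of spread, and a gene with a small but even difference between the groups follows Stat2 as closely as a gene with a large one.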

How the data were processed

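Transcript levels were taken from RNA-seq of 6 libraries, 3 labelled LPS and 3 labelled LPSKD, grouped by the sample titles. The values deposited by the authors are FPKM, 1 for each gene in each library, with no replicates pooled. The submitters' processing notes name Bowtie 0.12.2, HISAT2 2.0 and StringTie 1.3.0, with no role for each, and builds of mouse and human, so that the gene models behind the FPKM are not given in the sources used here. For 97.8% of the 16837 genes above 0, the values gave whole fragments at the merged coding length of GENCODE M21 or up to 10 bases more, which gave the totals and the fragments per gene. Levels between genes therefore rest on coding lengths. Limits on a count of 0 cover counting error only.

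Differences were tested in R 4.3.3 with limma 3.58.1 (lmFit and a trended eBayes) on log2(FPKM + 0.1), keeping genes whose mean FPKM was at least 0.5, with no covariates. On this scale the change of a low gene is understated. Exact permutation tests were two-sided over 20 assignments. Replicates differed by more than counting noise (chi-square per gene 4.05 to 10.6 over 11978 genes), so each was kept. The fit was tested on simulated data with the same spread for every gene and no added counting noise. That simulation does not show how the fit behaves where fragments are few.

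The members and lists were chosen with earlier results of these data known. Named genes were the 9 genes and Stat3, in each list up to 4 called genes with the largest change and up to 3 others with the highest mean, the nearest tested protein-coding neighbours, and the 3 genes most like Irf9 and Stat2. Ifnlr1, Lepr, Rnf31, Oas1a, Ifnab, Ifnb1, Ifng and the single markers were named after their values were seen. The alternatives were other pseudocounts, filters, scalings, no trend in eBayes, a block for the replicate number, limma-voom on the fragments and the omission of each library. The ChIP-seq samples and other assays of the study were not analysed here. Protein sequences were not used here. Figures were drawn with matplotlib 3.10.9 in Python 3.11.15.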

Additional observations from a re-analysis of the deposited data

How the results depend on the processing

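The calls of Ifngr1 (log2 fold change 0.37 to 0.40) and Irf9 (−2.05 to −1.78) held under every alternative that kept the 6 libraries and under each omission, with adjusted p of at most 0.0158 and 0.00362 from limma. Over all results, 213 values with the 6 libraries kept their direction and side of the threshold, or their count within 1.5 times, 9 counts moved, 2 calls were lost and 1 value turned sign. With 1 library left out these numbers were 124, 16, 7 and 9. The count of 379 genes called became 140 without the eBayes trend, 213 with the replicate number as a block and 582 by limma-voom, and 158 to 356 with 1 library left out. The count of receptor chains called fell from 2 to 1 without the trend and with the replicate block, where Ifngr2 kept a log2 fold change of 0.29 with adjusted p = 0.0691 and 0.0570. With 1 library left out it was 1 to 2, and Ifngr2 lay between 0.25 and 0.32. The factors called were 1 to 2 and Stat2 lay between −0.57 and −0.47 over the omissions. Usp18 was the only brake called, and limma-voom called 2. The interferon gamma targets called fell from 2 to 1 with no filter, without the trend and with the replicate block, and were 1 to 2 over the omissions. The other receptors called were 0 to 1 over the omissions, with Lepr called without LPS library 1. Tyk2 turned to 0.023 under quantile normalization and lay between −0.080 and 0.039 over the omissions. Estimates near 0 turned sign when a library was left out, with Ifnar1 between −0.045 and 0.095, Stat3 between −0.064 and 0.044 and the ratio of Tyk2 to Jak1 between −0.15 and 0.0068. The cause of these changes was not tested, but an omission leaves fewer libraries. The values showed no sign that the replicate numbers pair the samples. The correlations of same-numbered deviations were −0.0160, −0.00388 and −0.0426, and no LPS library correlated best with its own number. With 3 libraries in each group, these correlations cannot exclude a weak pairing. The replicate block changed no other call among the 9 genes. The few fragments on the ligand genes limit what can be said of them.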
